A study of Homo sapiens with 4 samples.

Results

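The core pluripotency regulators examined here are 10 genes, POU5F1, NANOG, SOX2, LIN28A, LIN28B, SALL4, PRDM14, UTF1, L1TD1 and ZFP42, chosen by name as regulators known from both the naïve and the primed state of human embryonic stem cells (hESCs). They are 10 of 62218 annotated genes and carry 29 of the 244825 transcripts counted. All 10 passed the filter on low counts, which kept 27633 genes. The cells were of H1, a human embryonic stem cell line with a wild-type genotype, and were compared in 2 culture states with 2 libraries each. Primed TesR cells were kept in mTeSR on Matrigel at normal oxygen and taken at 60 to 70% confluency. Naïve FINE cells were derived from the H1 primed cells by a change to the naïve FINE medium, which holds kinase inhibitors with LIF, activin A and bFGF, were kept at low oxygen, and were taken at 50% confluency. The paper also gives a Matrigel reduced in growth factors and a different passaging enzyme for the naïve cells. Both states are thus 1 cell line, and the state, the medium, the oxygen level, the confluency and these steps cannot be told apart. RNA was sequenced as Nanopore complementary DNA, and the values are counts of alignments over each transcript span.

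Pluripotency, the capacity to form every lineage of the embryo, rests on a small circuit of transcription factors. POU5F1 (OCT4), SOX2 and NANOG bind regulatory DNA together, often at a composite element where an octamer-like motif for OCT4 sits beside a motif for SOX2. SALL4 and PRDM14 act with them on chromatin, UTF1 binds chromatin in undifferentiated cells, LIN28A and LIN28B block the maturation of let-7 microRNAs, and L1TD1 is an RNA-binding protein derived from a LINE-1 element. The naïve state resembles the epiblast before implantation and the primed state the epiblast after it.

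The DNA just upstream of the start is shown for 4 of the 5 genes with the largest fold differences between the states. It was chosen because letters at NANOG and SOX2 match motifs of the circuit. Whether these matches are bound in these cells was not tested. The sequences are 250 bases on the plus strand of GRCh38.p14, read from the RefSeq promoter table, 5′ to 3′ and ending at the base before the start of the counted transcript. Capitals mark a match to an octamer motif (ATGCAAA or its reverse complement TTTGCAT), a SOX motif (ACAATG or CATTGT), or the composite of both (TTTGCAT, any base, then ACAATG, or the reverse complement). NANOG lies at chr12:7789152-7789401, SOX2 at chr3:181711675-181711924, LIN28B at chr6:104956857-104957106 and L1TD1 at chr1:62194599-62194848.
NANOG: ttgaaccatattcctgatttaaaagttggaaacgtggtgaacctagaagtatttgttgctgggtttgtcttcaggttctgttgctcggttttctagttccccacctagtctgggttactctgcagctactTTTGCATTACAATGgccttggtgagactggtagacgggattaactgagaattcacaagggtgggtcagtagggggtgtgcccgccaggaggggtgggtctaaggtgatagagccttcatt
SOX2: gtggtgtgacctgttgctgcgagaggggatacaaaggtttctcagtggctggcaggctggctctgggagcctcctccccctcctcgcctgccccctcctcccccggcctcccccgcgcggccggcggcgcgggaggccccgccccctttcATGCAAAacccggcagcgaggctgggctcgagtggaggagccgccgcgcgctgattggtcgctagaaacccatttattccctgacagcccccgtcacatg
LIN28B: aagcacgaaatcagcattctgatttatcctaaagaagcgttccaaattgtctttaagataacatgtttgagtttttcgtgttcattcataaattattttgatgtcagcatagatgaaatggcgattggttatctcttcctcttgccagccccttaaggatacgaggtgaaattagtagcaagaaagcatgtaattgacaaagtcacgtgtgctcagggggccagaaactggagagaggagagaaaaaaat
L1TD1: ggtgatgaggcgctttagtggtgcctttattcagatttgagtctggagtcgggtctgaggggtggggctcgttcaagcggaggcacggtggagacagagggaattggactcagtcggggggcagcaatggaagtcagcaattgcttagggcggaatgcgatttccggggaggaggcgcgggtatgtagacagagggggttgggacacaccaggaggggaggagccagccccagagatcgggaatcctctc
The NANOG window held the composite element, with its first base at position -120 from the start. The octamer and SOX matches at NANOG are parts of this 1 element. In the RefSeq table, whose windows also take in the first bases of the transcript, 3 of 35116 windows (0.00854%) held the composite. The SOX2 window held the octamer motif alone, at position -100, a match found in 4.46% of all windows. The LIN28B and L1TD1 windows shown held none of these letters. A further LIN28B window, at the start of another transcript, held the SOX motif at position -140, a match in 10.8% of all windows. The table had windows for 6 of the 10 genes. It had no entry for POU5F1, LIN28A, SALL4 and PRDM14.

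The libraries held between 129276054 and 161548901 counts over all transcripts, and between 23542387 and 30978752 when each gene was given the count of its most counted transcript. On the latter scale the limit for a gene with no count was 3 counts, which is 0.0968 to 0.1274 CPM (counts scaled to the size of the library), and it covers counting error only. The markers fitted the labels of the states: 8 of 8 naïve markers were called lower in primed TesR cells and 10 of 10 primed markers higher, with SFRP2, THY1, FZD7 and CYTL1 at 0 in both naïve libraries. KLF17 was the exception on the naïve list, at 95.3 and 94.9 CPM in the naïve libraries and still 70.7 and 72.8 CPM in the primed ones. Library size turned its log2 fold change from -0.41 to 0.23. The naïve libraries also held RNA of trophoblast genes. The summed level of 10 trophoblast markers was 2190 to 2500 CPM in the naïve libraries and 8.9 to 8.95 CPM in the primed ones. Most of the naïve sum came from CGA (1550 and 1860 CPM) and CGB3 (424 and 419 CPM). KRT7, TP63 and HAND1 were each at 1.17 to 2.9 CPM in the naïve libraries. Of the 10 markers, 9 were called lower in primed TesR cells and KRT7 (0.37) was not called. The part of such cells or transcripts in the differences below was not tested, and in bulk RNA fewer cells of a type and less RNA per cell cannot be told apart.

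The regulators split into 3 sets. SOX2, LIN28A, L1TD1, SALL4 and PRDM14 were higher in primed TesR cells, NANOG and LIN28B were higher in naïve FINE cells, and POU5F1, ZFP42 and UTF1 did not pass the test. The test was edgeR's quasi-likelihood test with TMM normalization and Benjamini-Hochberg adjustment over all genes, two-sided, at an adjusted p under 0.05. It called 7 of the 10 genes, 5 higher and 2 lower in primed TesR cells. Of all genes tested, 70.0% were called, 37.4% higher and 32.6% lower, so the share of these regulators called was that of the transcriptome as a whole. With library size in place of TMM, 9 of the 10 were called, 7 higher and 2 lower, against 72.5% of all genes, 56.2% higher and 16.3% lower. DESeq2 called the same number as edgeR, 5 higher and 2 lower, against 58.7% of all genes, 29.1% higher and 29.6% lower. The TMM CPM of 8 of the 10 did not overlap between the states, against 84.4% of all genes.

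**Figure D1:**
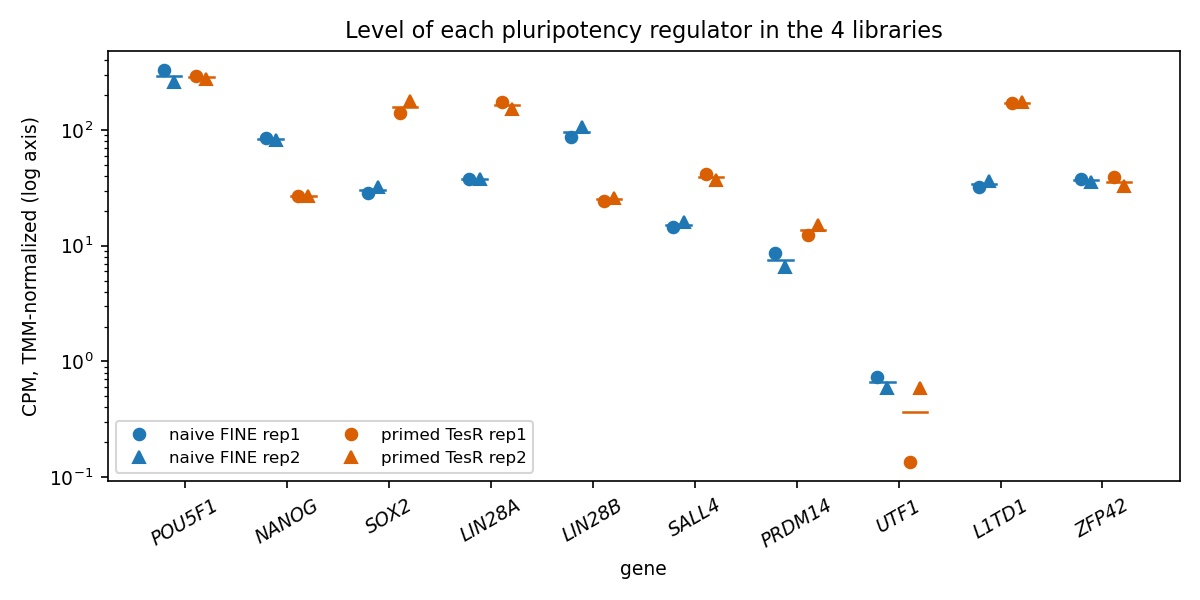
Each point is the TMM-normalized level in CPM (log axis) of 1 of the 10 genes in 1 library, blue for naïve FINE and orange for primed TesR, with circles for rep1, triangles for rep2 and a bar at the mean of the 2 libraries. POU5F1 stood highest in both states at 263 to 329 CPM, UTF1 lowest, and the columns of SOX2, LIN28A and L1TD1 step up from naïve to primed while those of NANOG and LIN28B step down.

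POU5F1 (ENSG00000204531) encodes OCT4, the POU-domain factor without which the pluripotent state is lost. It was counted as POU5F1-202, the only counted transcript of the 10 that is not MANE Select, a span of 5 exons on the minus strand at chr6:31164337-31180731 (GRCh38). Its level was 329 and 263 CPM in naïve FINE cells (7606 and 6709 counts) against 295 and 278 CPM in primed TesR cells (8689 and 8520 counts). Both primed libraries lay between the naïve ones, so the states overlapped. The log2 fold change, primed minus naïve, was -0.05 ± 0.143 (SE, n = 2 libraries per state), with an adjusted p of 0.771 by edgeR. This value depended on the scaling. With library size alone, which moved the median over all genes from 0.08 to 0.72, POU5F1 gave 0.59 with an adjusted p of 0.000198, a call for higher in primed TesR cells that still lay below the all-gene median.

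NANOG, a homeobox factor of the circuit, and SOX2, the HMG-box partner of OCT4, moved in opposite directions. NANOG (ENSG00000111704) was counted as NANOG-201, with 4 exons on the plus strand at chr12:7789402-7799146, and SOX2 (ENSG00000181449) as its 1 transcript, a single exon on the plus strand at chr3:181711925-181714436. NANOG was at 84.7 and 81.8 CPM in naïve FINE cells and at 27.1 and 27.0 CPM in primed TesR cells. The replicates of each state lay close together, with a 3.08-fold higher mean in naïve cells (log2 fold change -1.62 ± 0.147 SE, adjusted p = 4.36e-13 by edgeR, n = 2). SOX2 was at 28.5 and 32.4 CPM in naïve FINE cells and at 140 and 177 CPM in primed TesR cells. The lower primed library stood far above the higher naïve one, and the fitted log2 fold change was 2.38 ± 0.156 (SE, adjusted p = 1.32e-17 by edgeR). Library size in place of TMM kept both directions and calls, at -0.98 for NANOG and 3.01 for SOX2, and DESeq2 gave -1.67 and 2.33.

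The LIN28 paralogs differed in opposite directions. LIN28A and LIN28B are RNA-binding proteins with a cold-shock domain that bind let-7 precursors. LIN28A (ENSG00000131914, LIN28A-202) has 4 exons on the plus strand at chr1:26410817-26429728, and LIN28B (ENSG00000187772, LIN28B-201) has 4 on the plus strand of a far longer span, chr6:104957107-105083332. LIN28A had 880 and 965 naïve counts against 5200 and 4627 primed counts, or 38.1 and 37.8 CPM against 176 and 151 CPM. LIN28B ran the other way, with 2017 and 2717 naïve counts against 726 and 795 primed counts, or 87.4 and 106 CPM against 24.6 and 25.9 CPM. Neither gene overlapped between the states. The log2 fold change was 2.11 ± 0.15 (SE, adjusted p = 2e-16) for LIN28A and -1.94 ± 0.152 (SE, adjusted p = 4.75e-15) for LIN28B in the edgeR fit. LIN28A took 30.4% of the counts of the pair in naïve rep1 (95% Wilson interval 28.7 to 32.1%) and 26.2% in naïve rep2 (24.8 to 27.7%). In primed rep1 it took 87.7% (86.9 to 88.6%) and in primed rep2 85.3% (84.4 to 86.3%). The intervals cover counting error only and do not overlap between the states. The summed level of the pair was 125 and 144 CPM for naïve and 201 and 177 CPM for primed cells, a smaller step than that of either gene.

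SALL4 and PRDM14 are zinc-finger factors that work with the core circuit, SALL4 through the NuRD deacetylase complex and PRDM14 through CBFA2T2 and Polycomb. SALL4 (ENSG00000101115, SALL4-201) has 4 exons on the minus strand at chr20:51782331-51802521, and PRDM14 (ENSG00000147596, PRDM14-201) has 8 on the minus strand at chr8:70051651-70071252. SALL4 was at 14.5 and 15.9 CPM in naïve FINE cells and at 41.4 and 37.0 CPM in primed TesR cells, with 335 and 405 against 1220 and 1137 counts. The states did not overlap, and the mean was 2.58-fold higher in primed cells (log2 fold change 1.37 ± 0.155 SE, adjusted p = 1.94e-10 by edgeR). PRDM14 was the gene with the smallest difference among those called, at 8.62 and 6.54 CPM in naïve cells and 12.5 and 15.0 CPM in primed cells. Its counts were 199 and 167 against 368 and 461, all naïve values below all primed ones, and the log2 fold change was 0.86 ± 0.178 (SE, adjusted p = 4.16e-05 by edgeR). PRDM14 would not be called if a log2 fold change beyond 1 were also required, a rule that 47.1% of all genes met.

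L1TD1, ZFP42 and UTF1 are used as markers of undifferentiated cells. L1TD1 (ENSG00000240563) has 4 exons on the plus strand at chr1:62194849-62212328, ZFP42 (ENSG00000179059, ZFP42-201) has 4 on the plus strand at chr4:187995771-188005046, and UTF1 (ENSG00000171794) has 2 on the plus strand at chr10:133230217-133231558. L1TD1 had 740 and 923 naïve counts against 5044 and 5326 primed counts, or 32.1 and 36.1 CPM against 171 and 174 CPM. It was 5.05-fold higher in primed TesR cells, with no overlap (log2 fold change 2.34 ± 0.15 SE, adjusted p = 6.71e-18 by edgeR). ZFP42 (REX1), a zinc-finger factor related to YY1, had 38.1 and 35.5 CPM in naïve cells and 39.0 and 32.9 CPM in primed cells. The primed libraries lay on either side of the naïve ones, and the log2 fold change was -0.03 ± 0.149 (SE, adjusted p = 0.847 by edgeR), which library size turned to 0.61 with an adjusted p of 0.00079, again below the all-gene median of 0.72 on that scale. The signs of POU5F1 and ZFP42 were therefore not settled by these data.

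UTF1 was close to the limit of detection. It had 17 and 15 naïve counts against 4 and 18 primed counts, with exact 95% Poisson intervals of 9.9 to 27.2, 8.4 to 24.7, 1.09 to 10.2 and 10.7 to 28.4 counts. The interval of primed rep2 thus covered both naïve counts, while primed rep1 stood below the other 3 libraries. The levels of naïve rep2 and primed rep2 were both 0.587 CPM to 3 digits, so that UTF1 counts as not overlapping only by a smaller digit. The log2 fold change was -0.85 ± 0.478 (SE, adjusted p = 0.111 by edgeR), and library size gave -0.21 (adjusted p = 0.713). The value rested on which primed library was used. Without primed rep2 it was -2.08 (adjusted p = 0.0132 by edgeR) and without primed rep1 it was 0.00 (adjusted p = 0.996 by edgeR), in fits where the lone primed library was assumed to vary like the naïve ones.

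**Figure D2:**
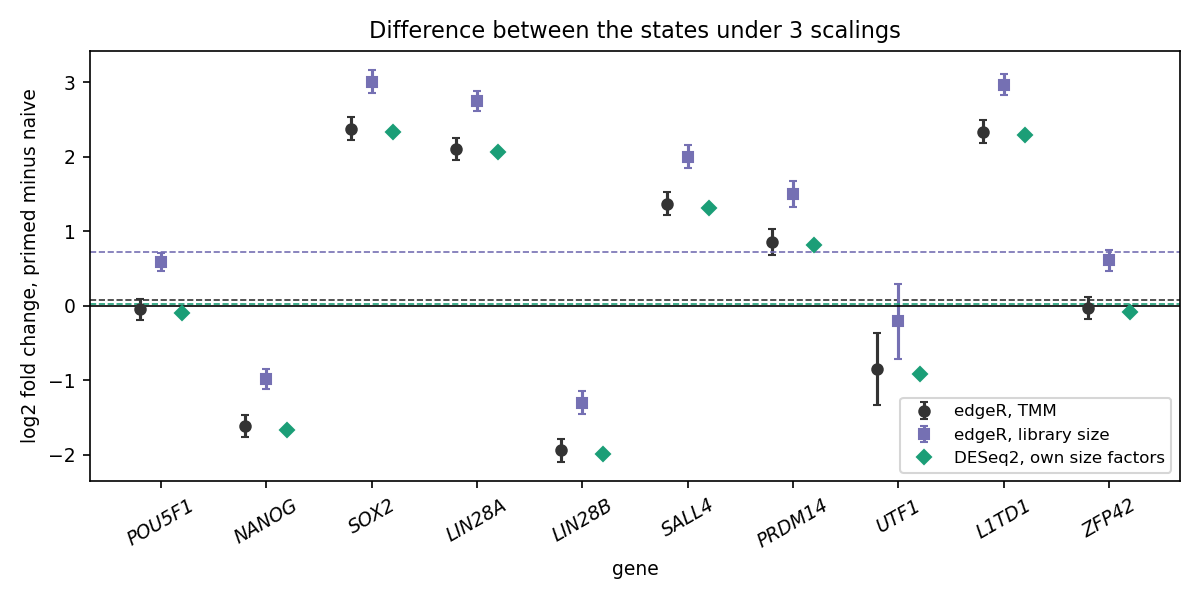
The log2 fold change, primed minus naïve, of each of the 10 genes is shown for edgeR with TMM (circles), edgeR with library size (squares) and DESeq2 (diamonds), with bars of 1 SE for the edgeR fits and none for DESeq2, and with dashed lines at the median of all genes under each scaling (0.08, 0.72 and 0.03). Library size lifts every gene by about the same step, so that POU5F1 moves from -0.05 to 0.59 and ZFP42 from -0.03 to 0.61, while the 7 called genes keep their side of 0.

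Levels were also divided by the exonic length of the MANE Select transcript, in kilobases, to set the genes side by side. Each alignment counted the same whatever its length, and counts took in introns, so this division need not make genes comparable. POU5F1 was the highest of the 10 in both states, at 209 ± 33.4 CPM per kb in naïve cells and 203 ± 8.77 CPM per kb in primed cells (mean ± SD, n = 2). These levels stood above 97.0% and 97.7% of the 27633 genes tested. In naïve FINE cells the order below it was LIN28B (17.8 ± 2.47 CPM per kb), NANOG (16.1 ± 0.391), ZFP42 (13.9 ± 0.681), SOX2 (12.1 ± 1.09), LIN28A (9.55 ± 0.0572), L1TD1 (8.9 ± 0.756), PRDM14 (3.34 ± 0.648), SALL4 (2.92 ± 0.184) and UTF1 (0.545 ± 0.0867). The library values of LIN28B and NANOG, and those of PRDM14 and SALL4, overlapped, so these neighbours were not separated. In primed TesR cells SOX2 came second (63.1 ± 10.3 CPM per kb), followed by L1TD1 (45.0 ± 0.416), LIN28A (41.2 ± 4.59), ZFP42 (13.6 ± 1.62), SALL4 (7.53 ± 0.595), PRDM14 (6.06 ± 0.787), NANOG (5.22 ± 0.0163), LIN28B (4.64 ± 0.162) and UTF1 (0.297 ± 0.262). There the lowest library of L1TD1 (44.7 CPM per kb) and the highest of LIN28A (44.4) nearly met, and no neighbours overlapped. This order depends on the division by length. In CPM without it, the primed order below POU5F1 began with L1TD1, LIN28A and SOX2 (172, 164 and 159 CPM), whose library values overlapped. On that scale SOX2 was at rank 7 in naïve and rank 4 in primed cells. Per kb, LIN28B went from rank 2 to rank 9 and NANOG from rank 3 to rank 8, while SOX2 went from rank 5 to rank 2.

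Ratios within a library need no scaling between libraries, and they were taken against POU5F1, the most abundant of the 10. Of 9 such ratios of counts, 5 were higher in both primed libraries than in both naïve ones, 3 were lower and 1 overlapped. Over the other genes tested, 80.4% of the ratios to POU5F1 did not overlap, 44.0% higher and 36.4% lower in primed cells. UTF1, 1 of the 3 lower ratios, was separate by a narrow gap, at 0.224% in both naïve libraries against 0.046% and 0.211% in primed cells, and rests on 4 and 18 primed counts. SOX2 was 8.66% and 12.3% of the POU5F1 count in naïve cells against 47.5% and 63.7% in primed cells. NANOG was 25.7% and 31.1% against 9.18% and 9.72%. ZFP42 gave the overlapping ratio, at 11.6% and 13.5% in naïve cells and 13.2% and 11.9% in primed cells. The ratio of SOX2 to NANOG was 0.337 and 0.396 for naïve against 5.18 and 6.56 for primed cells, a difference of 15.9-fold between the means on the log scale. The ratio of LIN28A to LIN28B was 0.436 and 0.355 against 7.16 and 5.82, or 16.4-fold. In both ratios the order of the genes was turned over between the states. An exact permutation test of 2 against 2 libraries cannot give a two-sided p below 0.333, so no p is given for these ratios.

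**Figure D3:**
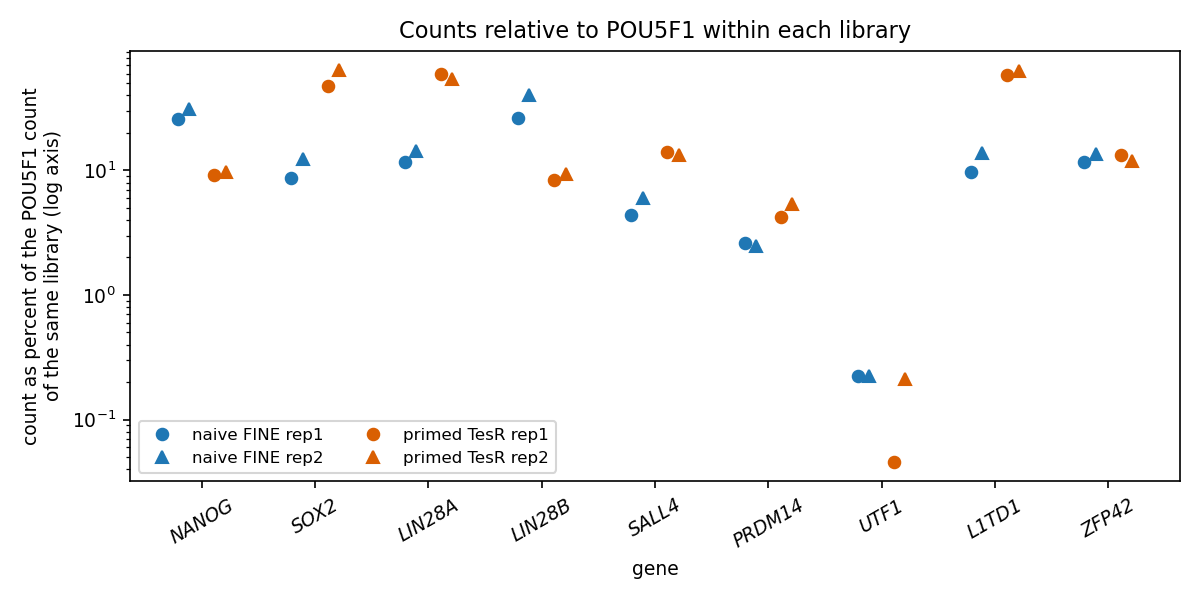
Each point is the count of 1 gene as a percent of the POU5F1 count in the same library (log axis), with colours and shapes for the 4 libraries. The primed points of SOX2, LIN28A and L1TD1 lie between 47.5% and 63.7%, the naïve points of the same genes between 8.66% and 14.4%, and the points of ZFP42 lie together at 11.6% to 13.5%.

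No transcript of these genes passed the test of isoform usage. Of the 29 transcripts, 26 in 7 genes entered it, in which edgeR's diffSpliceDGE sets each transcript against the others of its gene and the dIF is the primed minus the naïve isoform fraction. A call needed a dIF beyond 0.1 as well as an adjusted p under 0.05, and 0 of the 26 were called, against 0.556% of the 159577 transcripts tested, and 0 had an unadjusted p under 0.05. The dIF ran from -0.0169 to 0.0328, and both ends belonged to ZFP42. Spans were counted whole and often enclose each other, so this test sees little of the splicing within them. LIN28A-201 and LIN28A-202, for example, had the same count in every library.

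Nested spans gave a view of where along a gene the alignments lay. ZFP42-201 reaches upstream of the short ZFP42-203 across chr4:187995771-188002707, and its alignments that missed ZFP42-203 lay in this stretch. They were 184 of 879 (20.9%) and 201 of 907 (22.2%) naïve counts against 80 of 1148 (6.97%) and 105 of 1010 (10.4%) primed counts. The 95% Wilson intervals were 18.4 to 23.7% and 19.6 to 25.0% for naïve, and 5.63 to 8.59% and 8.66 to 12.4% for primed libraries. The share of alignments in this 5′ stretch was thus higher in both naïve libraries, at 7.92 ± 0.0689 CPM against 3.07 ± 0.498 CPM. The count inside ZFP42-203 was 28.9 ± 1.73 CPM against 32.9 ± 4.79 CPM (mean ± SD, n = 2). POU5F1-202 exceeds POU5F1-201 by the stretch chr6:31170683-31180731. This stretch held 33 and 33 naïve counts (0.434% and 0.492% of the POU5F1-202 count) against 2 and 3 primed counts (0.023% and 0.0352%). For NANOG, 41.5% of the counts in both naïve libraries missed NANOG-202, against 43.5% and 47.8% in primed cells. What NANOG-202 lacks is mostly the 3′ end at chr12:7795096-7799146. Counting took in introns, both strands and every place a read aligned, so alignments outside an inner span need not come from the gene named. These pairs were chosen after their values were seen, and no test was made.

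Other annotations share the alignments of 4 of the genes. TCF19-204, on the opposite strand, runs over the 3′ end of POU5F1 and had 7516, 6563, 8636 and 8430 counts, between 97.8% and 99.4% of the POU5F1 count. TCF19-201, which does not touch POU5F1, had between 82 and 118. Strand was not used in counting, so alignments to either gene cannot be told apart where they overlap. SOX2 lies whole within the long noncoding SOX2-OT, whose transcript SOX2-OT-240 had 729, 892, 4292 and 5703 counts. SOX2-OT-255, which does not reach SOX2, had between 53 and 94. Within LIN28B lies RNU6-1106P (3 to 10 counts), within L1TD1 lie a Y_RNA (8, 14, 216 and 247 counts) and the processed pseudogene ENSG00000237227 (2 to 39 counts), and over POU5F1-202 lies PSORS1C3 (0 to 2 counts). No other annotated gene overlapped the counted transcripts of NANOG, LIN28A, SALL4, PRDM14, UTF1 and ZFP42.

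POU5F1 and NANOG have copies of closely similar sequence elsewhere in the genome, and a read that aligned at several places was counted at each. POU5F1B, POU5F1P3 and POU5F1P4 each had between 86.0% and 96.1% of the POU5F1 count in every library. Their log2 fold changes were -0.01, -0.02 and 0.00, next to -0.05 for POU5F1. Which of these loci the reads came from cannot be told apart. NANOGP8 had 1335 and 1448 naïve counts against 439 and 426 primed counts, and its log2 fold change was -1.99 (adjusted p = 2.46e-15 by edgeR). NANOGP1, an unprocessed duplicate of NANOG, had 305 and 383 counts against 42 and 66, with a log2 fold change of -2.97 (adjusted p = 2.38e-16 by edgeR). NANOGP8 held between 51.4% and 69.3% of the NANOG count, and for these copies too the locus that a read came from cannot be told apart, so their direction is not separate from that of NANOG. The copies of SALL4 held 4, 6, 19 and 34 counts in sum, and those of LIN28A at most 6.

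**Figure D4:**
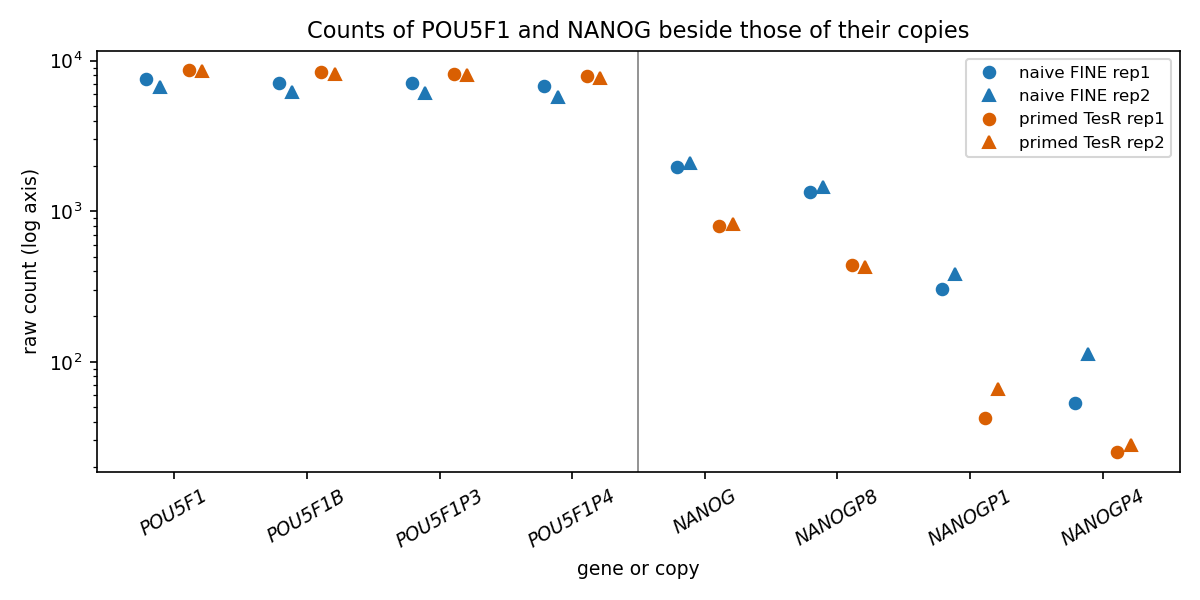
Raw counts (log axis) of POU5F1 with its copies POU5F1B, POU5F1P3 and POU5F1P4, left of the line, and of NANOG with NANOGP8, NANOGP1 and NANOGP4, right of it, are shown for the 4 libraries. The POU5F1 copies repeat the POU5F1 counts at 86.0% to 96.1% of their height, whereas the NANOG copies step down and are lower in the primed libraries.

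Genes that act with the regulators were described by list, and the counts called in each list stand against 70.0% of all genes called, 37.4% higher and 32.6% lower. Of 16 markers of undifferentiated cells tested, 11 were called higher and 4 lower in primed TesR cells, with a list median of 1.14 on the log2 scale against 0.08 over all genes. VRTN, a DNA-binding protein first known from vertebral number, had 0 and 4 naïve counts against 898 and 1332 primed counts. The surface sialomucin PODXL had 92 and 122 against 4096 and 4212 counts, and the telomere-binding TERF1 had 420 and 618 against 10919 and 9649 counts. The TGF-beta family ligand GDF3 went the other way, with 859 and 815 naïve counts against 135 and 134 primed counts (log2 fold change -2.95). So did the ligand NODAL (-2.64) and its inhibitor LEFTY2 (-1.82), all by edgeR with adjusted p of at most 7.29e-09. With library size the split was 12 higher and 4 lower.

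On the LIN28 and let-7 axis, 10 of 20 genes were called higher and 5 lower in primed TesR cells, with a median of 0.32. The targets of let-7 with the largest differences were CCND2, a G1 cyclin, with 10 and 5 naïve counts against 1017 and 969 primed counts, and HMGA2, a chromatin architectural protein, with 11 and 14 against 302 and 418. IGF2BP1, an RNA-binding protein of the oncofetal type, rose by 1.55 on the log2 scale (adjusted p = 1.52e-12 by edgeR). MIR99AHG, a host transcript of a let-7 microRNA, was lower, with 163 and 194 naïve counts against 19 and 14 primed counts. MIRLET7BHG, the other let-7 host transcript of the list, was called higher, with 0 and 3 naïve counts against 18 and 23 primed counts (adjusted p = 2.29e-05 by edgeR). It was named after its values were seen. TUT4 (-0.67), the uridylyl transferase that LIN28A recruits to let-7 precursors, was also called lower. With library size the split was 14 higher and 1 lower, and TUT4 lost its call.

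Of 13 genes of NuRD, the deacetylase complex that SALL4 recruits, 3 were called higher and 5 lower in primed TesR cells, led by MTA1 (2.42) and MTA3 (1.02), which are scaffold subunits, and GATAD2B (0.56) on one side and the remodeller CHD3 (-1.29), the methyl-CpG binder MBD2 (-0.95) and the histone binder RBBP7 (-0.69) on the other. These splits moved with the scaling, to 8 higher and 1 lower with library size, and without either primed library 3 NuRD genes were called lower. Of 12 genes of the BAF remodelling complex, 3 were higher, namely SMARCB1 (0.64), SMARCD1 (0.61) and SMARCC1 (0.46), and 2 were lower, BCL7A (-0.97) and DPF2 (-0.37). With library size 9 BAF genes were called higher and 0 lower, and without naïve rep1 3 were called in all. The median was -0.14 for NuRD and 0.12 for BAF, and the shares called, 61.5% and 41.7%, were below the 70.0% of all genes.

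Of 18 other genes listed as partners of OCT4, SALL4 and NANOG, 17 were tested, and 7 were called higher and 7 lower, with a median of 0.04. TCF3 rose by 1.48 on the log2 scale. This is the E-protein gene of that symbol, and its place among the partners was not tested. The Krüppel-like factor KLF5 was lower by a wide margin, with 295 and 434 naïve counts against 22 and 28 primed counts (log2 fold change -4.16, adjusted p = 1.13e-19 by edgeR). SP1 (-1.10) was also called lower. NR0B1, at 0 in both naïve libraries and at 4 and 2 counts in primed cells, was not tested. With library size 10 were higher and 2 lower, and without primed rep2 4 were called lower.

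Of 7 partners of PRDM14, JARID2, a Polycomb accessory protein, was called higher (0.90) and 5 were called lower in primed TesR cells, with a median of -0.72. The coactivator NCOA3 had 3376 and 4153 naïve counts against 509 and 595 primed counts, a log2 fold change of -3.07 (adjusted p = 2.09e-21 by edgeR). CBFA2T2, the corepressor that PRDM14 binds, had 1254 and 1553 against 507 and 641 counts, a log2 fold change of -1.60 (adjusted p = 2.37e-12 by edgeR). Both kept their direction and call with library size. The Polycomb enzyme EZH2 (-0.76) did not, and on that scale 1 gene was called higher and 2 lower.

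Among 26 relatives from the gene families of the regulators, 17 were tested, of which 8 were called higher and 6 lower with a median of -0.19. The other SALL genes were higher in primed TesR cells. SALL1 had 1 and 1 naïve counts against 149 and 124 primed counts, SALL2 had 9 and 25 against 1297 and 1232, and SALL3 had 10 and 10 against 181 and 214. All 3 were called by edgeR, as SALL4 was. SALL2 is also on the list of primed markers above, so its direction is not separate from that list. VENTX, a homeobox relative of NANOG, was lower (-1.79), as were SOX15 (-0.76) and POU6F1 (-0.64), and SOX15 and POU6F1 lost their calls with library size, where 10 relatives were higher and 2 lower. Without either primed library, 7 relatives were called in all.

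**Figure D5:**
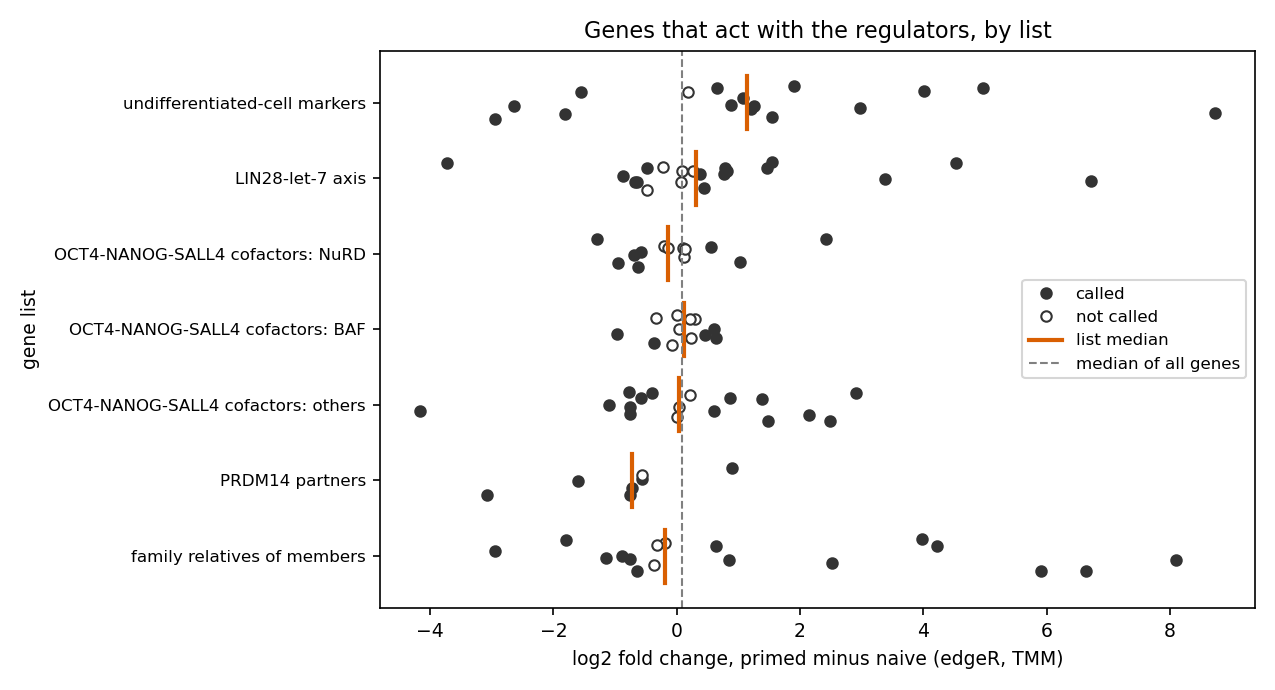
Each circle is the log2 fold change, primed minus naïve, of 1 gene from the 7 lists (edgeR with TMM), filled where called and open where not, with an orange bar at the list median and a dashed line at the all-gene median of 0.08. The medians of the NuRD (-0.14), BAF (0.12) and other cofactor (0.04) lists lie near the dashed line, that of the undifferentiated-cell markers (1.14) to its right and that of the PRDM14 partners (-0.72) to its left.

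Other marker lists differed between the states and stand beside these results. The 5 amnion markers were all called lower in primed TesR cells, with a summed level of 24.0 to 25.6 CPM in naïve and 4.93 to 6.39 CPM in primed libraries, and 4 were called lower with library size. Of 5 primitive endoderm markers tested, 2 were called higher and 2 lower (3 and 1 with library size), and FOXA2 was at 0 in both naïve libraries. All 3 neuroectoderm markers tested were called higher in primed cells, at a summed 15.0 to 16.3 CPM against 2.21 to 2.5 CPM, and SOX1 was at 0 in both naïve libraries. Of 3 mesoderm markers tested 1 was called higher, at a summed 2.12 to 2.34 CPM against 1.17 to 1.37 CPM (2 called with library size). Of 4 fibroblast markers tested 3 were called higher (4 with library size), at a summed 58.0 to 59.9 CPM against 2.62 to 3.64 CPM. Most of the primed sum came from the type I collagen genes COL1A1 (32.2 and 38.2 CPM) and COL1A2 (24.0 and 19.7 CPM). POSTN, also called, had 12 and 14 primed counts. DCN and LUM were not tested and had at most 5 counts in any library. The part of these markers in the differences of the regulators was not tested.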

How the data were processed

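Nanopore complementary DNA of naïve FINE and primed TesR H1 hESCs was analysed, 2 libraries per state. The authors aligned reads to GRCh38 with minimap2 and deposited raw counts of alignments per transcript, made with featureCounts 2.0.0 on Ensembl annotation 105. Counting took the whole span of a transcript, with introns and without regard to strand. An alignment counted for every transcript it overlapped (option -O) and at every place it aligned (option -M). Counts over all transcripts summed to 129276054 to 161548901 per library. An alignment can enter this sum several times, so it is not a number of reads. The labels do not say that replicates came from separate cultures, so p-values measure only the spread between these libraries, which may be technical. Replicates of a state were distinct libraries (chi-square per degree of freedom 8.74 naïve and 5.53 primed). The labels give no batch.

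Identifiers were matched to GENCODE 44 for symbols, lengths and spans, for 242542 of 244825 transcripts, of which 97.9% had the same coordinates. Unmatched transcripts held 1.0% of counts and were left out. The value of a gene was the count of its transcript with the largest mean. Genes were kept if 2 or more libraries had 10 or more counts, and were fitted by edgeR 4.0.16 in R 4.3.3 with TMM (factors 0.7795 and 0.8242 naïve, 1.251 and 1.244 primed), glmQLFit and glmQLFTest. Isoform usage was tested with diffSpliceDGE. Adjustment was by Benjamini-Hochberg over all features. The fits were tested on simulated data. Intervals were computed with scipy 1.17.1 and figures drawn with matplotlib 3.10.9.

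The 10 genes and the lists were chosen with earlier results of these data known. Named beside the 10 genes are overlapping genes, copies named after them and, from each list, up to 3 genes per direction with the largest called change, separate states and a mean count of at least 50. NR0B1 and MIRLET7BHG were named after their values were seen. Some genes that the rule names are not reported here. Alternatives were library size, DESeq2 1.42.0, other count filters, summed or MANE Select transcripts, a log2 fold change beyond 1, the replicate number as a block, other isoform settings and each library left out in turn.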

Additional observations from a re-analysis of the deposited data

How the results depend on the processing

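NANOG, SOX2, LIN28A, LIN28B, SALL4 and L1TD1 kept their direction and call under all 12 alternatives run. The sign of POU5F1 (-0.05) turned with library size (0.59) and with a filter of at least 50 counts (0.05), and ranged from -0.26 to 0.16 when 1 library was left out, above 0 without naïve rep1, primed rep1 or primed rep2. That of ZFP42 (-0.03) turned with library size (0.61), the filter of at least 50 counts (0.07) and summed transcripts (0.02), and ranged from -0.14 to 0.25 without 1 library, above 0 without primed rep1 or primed rep2. Neither was called under these settings except with library size. PRDM14 (0.86) was lost when a log2 fold change beyond 1 was required. UTF1 ranged from -2.08 to 0.00 without 1 library, was called only without primed rep2, and fell below the filter of 50 counts. Of the lists, library size gave 9 BAF genes called (5 with TMM) and 3 PRDM14 partners (6 with TMM). Leaving out 1 library gave between 3 and 7 BAF genes and between 7 and 16 family relatives called (14 with all 4), lowest without naïve rep1 for BAF and without either primed library for the relatives. No member isoform was called under any alternative run. The cause of these changes was not tested.

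The replicate block, with the replicate number of the labels as a term, called 7 of the 10 genes, as the fit without it did, and moved no list count by over 1.5 times. The numbers were not shown to pair the libraries, since the deviations of same-numbered libraries correlated weakly, with Pearson's r 0.0407 and Spearman's rho 0.0599 over 27633 genes, and 0.0783 and 0.102 over the 17615 with a mean count of at least 50. Library size called 9 of the 10 genes (72.5% of all genes) and DESeq2 called 7 of the 10 (58.7% of all genes). Counts near those of UTF1 limit what could be detected, and copies of POU5F1 and NANOG limit what their counts can be assigned to.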
